A study of Homo sapiens with 9 samples.

Results

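MS023, a small-molecule inhibitor of the type I protein arginine methyltransferases, was compared with its solvent DMSO in A549 cells, an epithelial line derived from a lung adenocarcinoma. The comparison took the 3 MS023 and the 3 DMSO libraries of a series of 9. It covered all genes with enough counts by a filter over the 9 libraries, which were 18292 of 51796 gene identifiers. Cells were held for 7 days with MS023 at 1 µM or with DMSO, and the other 3 libraries came from cells that had 7 days of 1 µM GSK591, an inhibitor of the type II enzyme PRMT5. All 9 libraries were total RNA sequenced after removal of ribosomal RNA. Every group was the same unmodified cell line, described in the labels as freshly bought. Control plates started from 0.2 × 1e5 cells and drug plates from 0.4 × 1e5, so effects of the drug and of the seeded number cannot be told apart in any comparison with DMSO. Both drugs shared the higher number. The labels do not say that the replicates were separate cultures, and the p-values then measure only the spread between these libraries, which may be technical.

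Protein arginine methyltransferases (PRMTs) add methyl groups to arginine side chains of histones and of many RNA-binding proteins. Type I enzymes, among them PRMT1, PRMT3, CARM1 and PRMT6, place asymmetric dimethylarginine, whereas PRMT5 places the symmetric form. Histone marks of the asymmetric kind are known mostly from active promoters, and arginine- and glycine-rich (RGG) RNA-binding proteins are classic substrates in the nucleus. RNA levels do not show the activity of such an enzyme.

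The MS023 libraries held 38203250 to 51244525 counts and the DMSO libraries 33001030 to 47387808. Levels below are CPM, counts of a gene relative to the TMM-scaled total of its library, in the order of replicates 1, 2 and 3. Changes are fitted log2 differences, MS023 minus DMSO, ± standard error. On principal components of the 6 libraries, the first (61.58% of the variance) separated the groups, and on the second (18.43%) DMSO 1 stood at -38.51 against 20.12 and 13.52 for DMSO 2 and 3. A set of 7 abundant identifiers without an annotated type, picked after their values were seen, took 8630 CPM in DMSO 1, 6.48 and 8.45 CPM in DMSO 2 and 3, and 5.89, 920 and 465 CPM in MS023. Mitochondrial ribosomal RNA had 20.7, 0.412 and 0.908 CPM in DMSO and 0.410, 6.04 and 13.1 CPM in MS023. In GSK591 3 they reached 15600 and 933 CPM. Both sets differed between libraries of the same group, and their part in any result was not tested. Epithelial markers were present in all 6 libraries, with 6620 to 6750 CPM in DMSO and 5340 to 5540 CPM in MS023 summed over 9 genes, of which 2 were higher (2 to 3 over the alternatives described below) and 6 lower (2 to 6). The 10 tested leukocyte markers summed to 30.1 to 31.8 CPM in DMSO and 25.2 to 26.3 CPM in MS023, with 1 higher (0 to 2) and 4 lower (1 to 4). The 7 fibroblast and endothelial markers summed to 17.5 to 20.2 and 31.2 to 34.8 CPM, with 3 higher (1 to 3) and 1 lower (0 to 1). Of the leukocyte genes CD163 and MS4A1 had 0 counts, CD4 rose (1.03 ± 0.24), and CD14 (-0.37 ± 0.09) and ITGAM (-0.86 ± 0.13) fell. COL1A1, which carcinoma lines can also express, gave 10.8 to 12.4 and 23.8 to 26.6 CPM of the fibroblast sum, and COL1A2, DCN and FAP had at most 2 counts in either group. The endothelial genes CDH5 (2.64 ± 0.52) and ENG (0.72 ± 0.17) rose. What part cells or programmes of these kinds have in any result was not tested. In bulk RNA, fewer cells of a type and less RNA per cell cannot be told apart.

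RNA of the inhibitor's target family moved little. CARM1, a type I enzyme that methylates histones and splicing factors, had 66.3, 57.3 and 60.4 CPM in DMSO and 69.7, 78.0 and 78.2 CPM in MS023. PRMT3, a cytosolic type I enzyme that methylates a ribosomal protein, had 73.3, 73.3 and 68.6 CPM in DMSO and 51.5, 51.5 and 55.2 CPM in MS023. Neither pair of groups overlapped. CARM1 rose by 0.30 ± 0.06 (edgeR quasi-likelihood test, adjusted p = 6.80e-04), and PRMT3 fell (-0.44 ± 0.04, adjusted p = 5.64e-07). PRMT2, a less active type I member, was slightly lower (-0.12 ± 0.04, adjusted p = 0.0287), a call lost without DMSO 1 (adjusted p = 0.158), DMSO 2 (0.109), MS023 2 (0.125) or MS023 3 (0.108) and in 6 other alternatives. PRMT1 did not pass (0.11 ± 0.05, adjusted p = 0.0682), but did without DMSO 1 (0.00806) or MS023 1 (0.0213) and in 3 other alternatives, which were both other filters and scaling by total counts. PRMT6 and PRMT8 had 0 counts in all 9 libraries and were not tested. The annotation used for the counting is not stated, so these counts do not show that the genes were silent. Of the 8 tested type II and III enzymes and PRMT5 partners, none rose by the edgeR test, 0 did at an unadjusted p under 0.05 or in DESeq2, and 4 fell (0 to 4 over the alternatives described below). CLNS1A, which brings PRMT5 to spliceosomal Sm proteins, fell by 0.19 on the log2 scale, from 109, 115 and 111 CPM to 99.1, 94.9 and 99.6 CPM. The others that fell were PRMT5, whose call was lost without DMSO 1 (adjusted p = 0.0886), and PRMT10, lost without DMSO 2 (0.134) or MS023 3 (0.0519). FBXO11, an F-box protein whose place among these enzymes is disputed, also fell, a call lost without DMSO 2 (0.0885). Over all 18 alternatives, stricter thresholds included, the call changed in 6 for PRMT5, 7 for PRMT10 and 8 for FBXO11.

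Across all genes, 9327 (51.0%) differed between MS023 and DMSO (edgeR, Benjamini-Hochberg adjusted p under 0.05). Of these, 4594 (25.1% of tested genes) were higher and 4733 (25.9%) lower. Because the count filter used all 9 libraries, a gene could be tested through its GSK591 counts alone. A fit of only the 6 libraries compared tested 17490 genes, with 4494 higher and 4500 lower. Most changes were small: 61.7% of the called genes moved by less than 0.5 on the log2 scale, and the median size among called genes was 0.37. At least 2-fold, 779 genes rose and 720 fell, and at least 4-fold, 131 rose and 152 fell. The 3 libraries of MS023 lay wholly to one side of the 3 of DMSO for 10517 genes (57.5%). The median over all tested genes was -0.003, and every list below is read against that value and against the shares of 25.1% and 25.9%. Shares also varied with level. Genes with a mean of at least 100 CPM, 2332 in number, were higher in 21.5% and lower in 40.3%, and 4024 genes of 1 to 10 CPM were higher in 31.9% and lower in 22.8%. Lists of abundant genes are therefore to be read against the former. Counts of list members are followed by their range over 16 other processings that kept the threshold of 0.05, where that range is wide. These were other scalings, filters and tools, the authors' FPKM tables, and each library left out in turn.

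**Figure D1:**
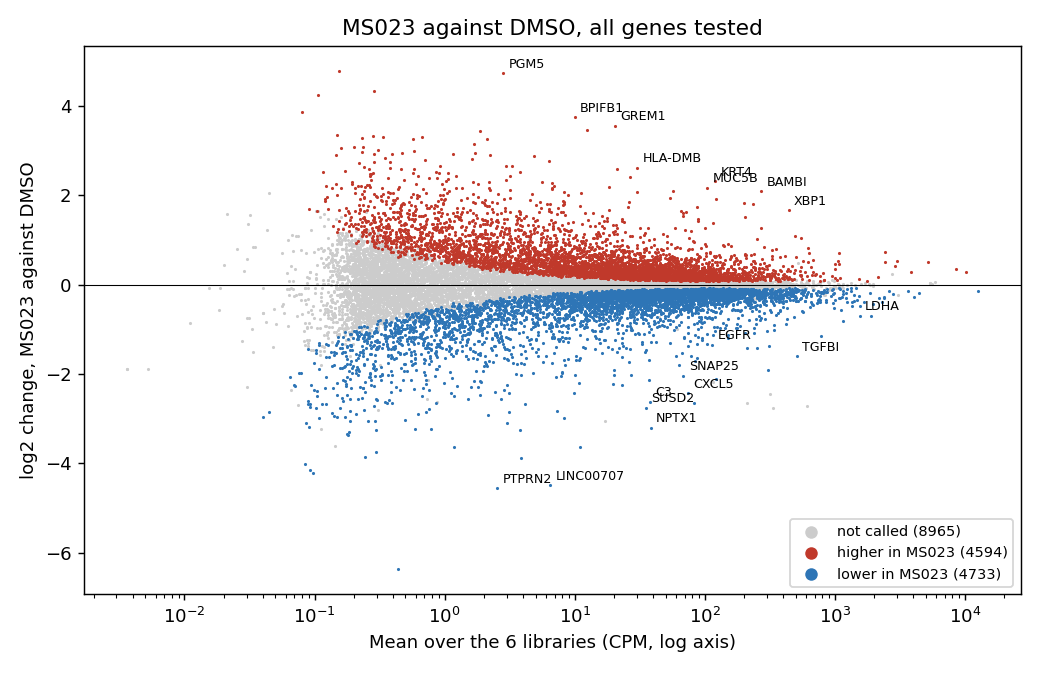
Each point is a tested gene, placed by its mean level (CPM on a log axis, x axis) and its fitted log2 change in MS023 against DMSO (y axis), with called genes coloured by direction. Increases and decreases were similar in number, 4594 and 4733, and the changes of at least 4-fold were 131 and 152.

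The largest increases were led, among genes without near-identical copies, by BPIFB1, GREM1 and KIF1A. BPIFB1 (ENSG00000125999, hg19 chromosome 20, 31861286 to 31897684), a secreted lipid-binding protein of airway mucus, had 1.66, 1.26 and 1.30 CPM in DMSO and 18.3, 19.2 and 18.2 CPM in MS023. GREM1 (chromosome 15, 33010175 to 33026870), an extracellular antagonist of bone morphogenetic proteins (BMPs), had 3.03, 2.86 and 3.61 CPM in DMSO and 28.6, 41.8 and 42.1 CPM in MS023. KIF1A (chromosome 2, 241653181 to 241759725), a kinesin motor of axonal transport, had 2.34, 1.67 and 2.25 CPM in DMSO and 18.6, 24.3 and 25.3 CPM in MS023. In all of them the groups lay far apart, with the lowest MS023 library several times above the highest DMSO library. BPIFB1 rose 13.4-fold (log2 3.75 ± 0.13, adjusted p = 1.40e-11), GREM1 11.8-fold (3.56 ± 0.15) and KIF1A by a log2 change of 3.45 ± 0.14. PGM5 had the largest fitted change (4.74 ± 0.26), and its value is uncertain because near-identical copies of the gene share reads. The other large increases were the adrenergic receptor ADRA2A (3.45 ± 0.24), the dicarboxylate transporter SLC13A2 (3.26 ± 0.20), the drug-metabolising cytochrome CYP2B6 (3.14 ± 0.23), LRRC36, the secreted glycoprotein AZGP1 (2.91 ± 0.24), the somatostatin receptor SSTR2 (2.90 ± 0.18), the small GTPase RASD1 (2.88 ± 0.13), the toll-like receptor TLR10, C1orf61, the adhesion molecule DSCAML1 and ITM2A (2.65 ± 0.15). The adjusted p of these 15 genes was at most 3.16e-07.

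The largest decreases were led by PTPRN2 and LINC00707. PTPRN2 (ENSG00000155093, chromosome 7, 157331750 to 158380480), a phosphatase-like receptor of secretory vesicles, had 5.06, 4.42 and 5.21 CPM in DMSO and 0.254, 0.182 and 0.165 CPM in MS023. LINC00707 (ENSG00000238266, chromosome 10, 6821560 to 6884868), an intergenic non-coding RNA, had 11.3, 13.4 and 12.5 CPM in DMSO and 0.683, 0.572 and 0.376 CPM in MS023. SUSD2, a cell-surface protein, had 63.3, 60.2 and 60.2 CPM in DMSO and 9, 9.13 and 8.98 CPM in MS023. The MS023 libraries were the low ones in each case and no libraries overlapped. PTPRN2 fell 23.6-fold (-4.56 ± 0.17, adjusted p = 3.50e-11), LINC00707 22.5-fold (-4.49 ± 0.15) and SUSD2 6.78-fold (-2.76 ± 0.04). NPTX1, a secreted neuronal pentraxin, went from 70.9, 69.5 and 67.5 CPM to 8.59, 6.92 and 6.93 CPM (-3.20 ± 0.07). Others were the cadherin CDH4 (-3.87 ± 0.19), the glutathione-cleaving GGT5 (-3.63 ± 0.22), the serine protease HTRA3 (-3.63 ± 0.10), the lipopolysaccharide-binding protein LBP (-3.25 ± 0.15), the protease inhibitor SERPINA3 (-3.10 ± 0.16), the NAD-consuming ectoenzyme CD38 (-2.99 ± 0.12), the BMP regulators CHRDL2 (-2.93 ± 0.17) and BMPER (-2.83 ± 0.08), the serine dehydratase SDS and the DNA repair methyltransferase MGMT (-2.68 ± 0.18). The neurotrophin receptor NTRK3 fell in counts, from 146, 146 and 138 CPM to 25.2, 21 and 22 CPM. Its FPKM, however, were 29.1, 32.0 and 28.3 in DMSO and 53.1, 5.19 and 5.99 in MS023, and there the call was lost. A pair of genes was nearly off in one group. C2orf54 summed to 3 counts in DMSO and 71 in MS023, and the forkhead gene FOXS1 to 109 counts in DMSO and 1 in MS023.

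**Figure D2:**
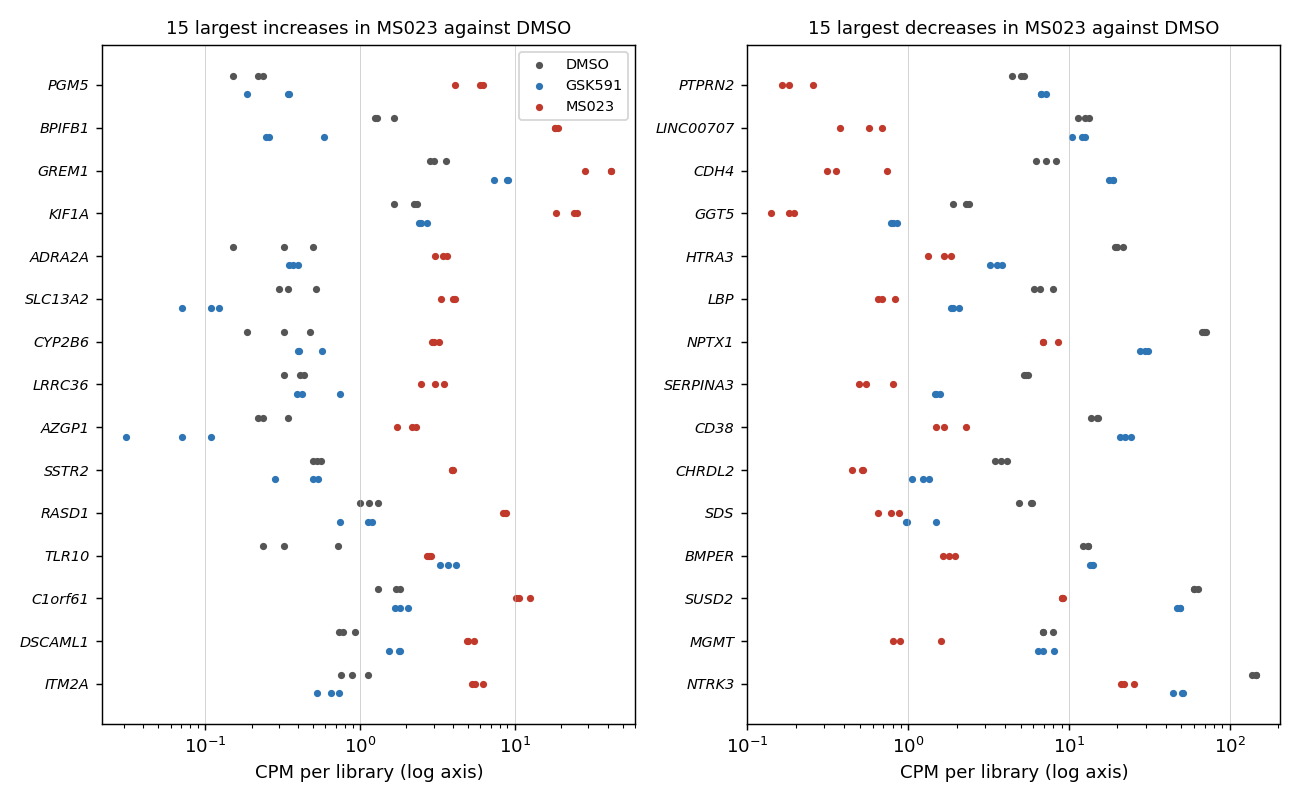
CPM on a log axis in each DMSO, MS023 and GSK591 library for the 15 largest increases and the 15 largest decreases, with 1 point per library. The genes were chosen for groups that do not overlap, so the gap between MS023 and DMSO is part of the choice, and the GSK591 points show where the third group lies.

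MS023 and GSK591 libraries were then compared directly, since their comparisons with DMSO share the same controls. In this test 11955 genes (65.4%) differed, 6151 higher and 5804 lower in MS023. Of the 9327 genes called against DMSO, 7065 (75.7%) also differed from GSK591. All 15 of the largest increases and all 15 of the largest decreases differed. The levels with MS023 were higher than with GSK591 for 14 of the increases and lower for all 15 decreases. These genes were chosen by the same MS023 libraries, which favours those directions, and no weight is put on the counts. Against DMSO, GSK591 itself raised 3 of the 15 increases and lowered 3, and it lowered 9 of the 15 decreases and raised 3. BPIFB1 had 0.248, 0.259 and 0.589 CPM in GSK591, against 18.2 to 19.2 CPM in MS023 (log2 5.60 ± 0.16, adjusted p = 5.93e-13). PTPRN2 had 6.74, 7.20 and 6.74 CPM in GSK591, above its DMSO libraries, while its MS023 libraries were below 1 CPM. TLR10 was the increase that was lower in MS023 than in GSK591 (adjusted p = 0.0413). That call was lost in 7 of 14 alternatives, including without GSK591 3 (adjusted p = 0.0778). The call of SDS (adjusted p = 0.025) was lost in 6 of 16, including without GSK591 3 (adjusted p = 0.178). The differences furthest above GSK591 were BPIFB1, SLC13A2 (5.22), HLA-DMB (5.00), AZGP1 (4.74), the imprinted non-coding RNA H19 (4.68) and C9orf152 (4.44). H19 had 98.7, 108 and 109 CPM in DMSO, 209, 192 and 188 CPM in MS023 and 9.32, 6.77 and 7.11 CPM in GSK591. The differences furthest below were the adhesion molecule VCAM1 (-6.07), the carboxypeptidase CPA4 (-5.95), CCBE1, the purine-degrading XDH, CDH4 and MYPN. CPA4 did not pass against DMSO (0.344, 0.564 and 0.367 CPM in DMSO, 0.273, 0.416 and 0.400 CPM in MS023, adjusted p = 0.461).

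Genes of airway secretory cells were among the clearest increases. These cells make the gel-forming mucins and small host-defence proteins of airway mucus under factors such as SPDEF and the FOXA proteins, and the factor XBP1 serves the expansion of their endoplasmic reticulum. Of 16 tested secretory products 11 rose (7 to 13) and 2 fell (0 to 3), with a median log2 change of 0.95. Another 14 of the 30 listed were below the count filter. A gene that is high only in MS023 can pass that filter, which favours increases among scarce members. MUC5B (chromosome 11, 1244296 to 1283406), a gel-forming mucin, had 44.3, 28.7 and 40.4 CPM in DMSO and 161, 180 and 170 CPM in MS023. The intestinal-type mucin MUC2 had 0.5, 0.802 and 0.713 CPM in DMSO and 1.99, 1.85 and 1.88 CPM in MS023. MUC5AC, the other main gel-forming mucin of airways, had 56.4, 42.6 and 65.3 CPM in DMSO and 47.5, 43.7 and 41.6 CPM in MS023. MUC5B rose 4.51-fold (2.17 ± 0.12, adjusted p = 2.24e-09) and MUC2 by 1.47 ± 0.21, with all MS023 libraries above all DMSO libraries. The groups overlapped for MUC5AC (-0.31 ± 0.11, adjusted p = 0.0309), whose call was lost without DMSO 1 (0.076), DMSO 3 (0.202), MS023 2 (0.0606) or MS023 3 (0.0848) and in 5 other alternatives. Of 12 mucin genes, 6 rose (3 to 6) and 2 fell (0 to 2). The peptide TFF3 (2.74 ± 0.39) and the lipid-binding BPIFA1 (2.59 ± 0.33) rose from under 0.3 CPM. The calcium-binding S100A9 (-2.29 ± 0.41) and S100P (-0.22 ± 0.05) fell, the latter not in FPKM.

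The transcription factors of this cell state moved too, with 10 of 22 higher and 5 lower (3 to 6). XBP1 (chromosome 22, 29190543 to 29196585), which drives the endoplasmic reticulum of secretory cells, had 211, 222 and 203 CPM in DMSO and 680, 663 and 671 CPM in MS023. CREB3L1, a membrane-bound factor cleaved in the Golgi, had 10.7, 7.15 and 7.54 CPM in DMSO and 43.4, 47.0 and 43.1 CPM in MS023. FOXA3, a forkhead factor of goblet cells, had 4.91, 5.05 and 4.99 CPM in DMSO and 17.9, 16.6 and 16.2 CPM in MS023. The groups were well apart for all 3, with increases of 3.17-fold for XBP1 (1.66 ± 0.06), 5.33-fold for CREB3L1 (2.42 ± 0.10) and 3.39-fold for FOXA3 (1.76 ± 0.07). All 3 were lower in GSK591 than in MS023, XBP1 at 74.5, 61.7 and 64.8 CPM. The hepatic and intestinal factor HNF4A (-0.37 ± 0.04) and CREB3L4 (-0.56 ± 0.07) fell, as did CEBPB (-0.34 ± 0.10), whose call was lost without DMSO 1 (adjusted p = 0.0529). Of 27 mucin-type and terminal glycosyltransferases 11 rose and 4 fell (2 to 5). The sialyltransferases ST6GALNAC1 (1.63 ± 0.16), ST6GALNAC2 (1.32 ± 0.14) and ST3GAL1 (1.27 ± 0.05) led the increases.

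Genes of the general secretion machinery summed to 6890 to 7230 CPM in DMSO and 6470 to 6680 CPM in MS023. Of these 42 genes for entry into the endoplasmic reticulum and transport to the Golgi 3 rose (2 to 5) and 17 fell (40.5%, 8 to 17 genes), beside 40.3% lower among all genes of at least 100 CPM, with MCFD2 lowest (-0.48 ± 0.05), and with SEC23B (0.16 ± 0.03) and SEC61A1 (0.15 ± 0.03) slightly higher. Of 35 genes of ATF4 and the unfolded protein response, 4 rose (3 to 6) and 14 fell (40%, 8 to 14 genes), near that 40.3%. The lipoprotein receptor VLDLR had 35.0, 35.2 and 31.9 CPM in DMSO and 12.1, 14.1 and 13.0 CPM in MS023. VLDLR (-1.38 ± 0.06), the stress-induced mTOR inhibitor DDIT4 (-0.80 ± 0.04) and the apoptosis regulator DDIT3 (-0.49 ± 0.12) fell, and the chaperone HYOU1 rose (0.36 ± 0.03). Of 35 heat shock proteins and chaperones 3 rose (2 to 7, and 7 without DMSO 1). In this list 14 fell (40%, 5 to 14 genes), again near the 40.3% among all genes of at least 100 CPM. The testis-enriched chaperone HSPA2 fell most, from 93.0, 102 and 97.1 CPM to 44.6, 41.1 and 41.4 CPM.

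**Figure D3:**
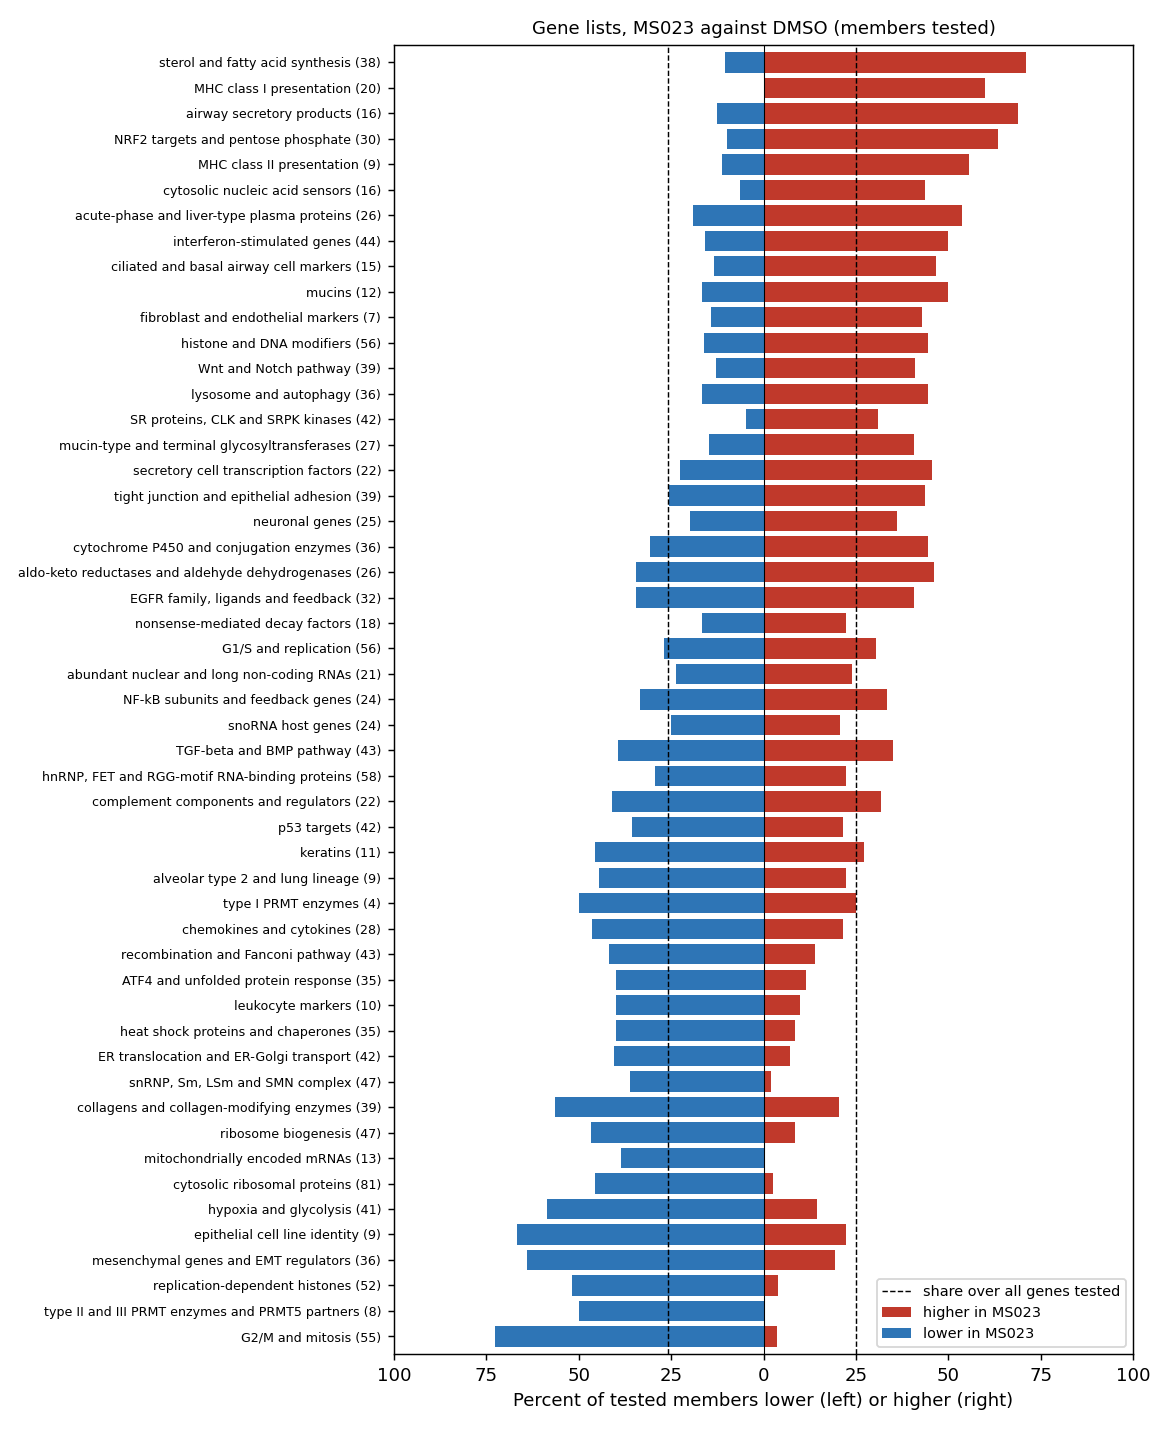
Percent of tested members of the gene lists that passed at an adjusted p of 0.05, higher to the right and lower to the left, with dashed lines at the shares over all tested genes, 25.1% and 25.9%. Sterol synthesis, NRF2 targets and airway secretory products extend furthest to the higher side, and G2/M genes to the lower side.

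Plasma proteins of the liver type, which lung carcinoma lines can express, moved in both directions. Of 26 acute-phase and carrier proteins 14 rose (9 to 15) and 5 fell (4 to 8), with a median of 0.41. SERPINF2, the plasmin inhibitor, had 3, 4.53 and 3.37 CPM in DMSO and 12.4, 13.3 and 12.6 CPM in MS023 (1.79 ± 0.11). In the same list LBP and SERPINA3 were among the largest decreases of all genes, as given above. Of 22 complement genes 7 rose (4 to 7) and 9 fell (7 to 11). C3, the central component of the cascade, had 67.1, 65.5 and 63.4 CPM in DMSO, 9.99, 11.3 and 10.6 CPM in MS023, and 86.6, 84.4 and 83.6 CPM in GSK591. Its fall of 6.17-fold (-2.62 ± 0.05) left every MS023 library below every other library. C1S, a protease of the classical pathway, fell (-1.33 ± 0.03) while the regulators SERPING1 (1.96 ± 0.28) and CLU (0.70 ± 0.04) rose.

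Immune genes of the interferon and inflammatory programmes did not move as a block. Interferons act on a shared set of antiviral genes, and MHC class II loading depends on the HLA-DM proteins. Of 44 interferon-stimulated genes 22 rose (9 to 25) and 7 fell (3 to 8). DTX3L, a ubiquitin ligase, had 40.5, 44.2 and 40.6 CPM in DMSO and 30.6, 28.1 and 28.9 CPM in MS023. It fell 1.43-fold (-0.52 ± 0.05, adjusted p = 1.01e-06), with no overlap, and the helicase-like DDX60L fell too (-0.56 ± 0.05). OASL (1.37 ± 0.15), OAS2 and MX1 (0.91 ± 0.20) were higher from levels near or under 1 CPM, and the call of OAS2 was lost without DMSO 2 (adjusted p = 0.057) or MS023 3 (0.0563). The sensor adaptor TMEM173, also called STING, had 1.25, 1.28 and 1.04 CPM in DMSO and 4.59, 5.93 and 5.03 CPM in MS023 (2.12 ± 0.15). Of 16 cytosolic nucleic acid sensors 7 rose (3 to 7) and 1 fell (1 to 3). The sensor kinase EIF2AK2 was the member that fell (-0.28 ± 0.04).

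Antigen presentation genes that passed the count filter were more often higher than lower. Of 20 MHC class I genes 12 rose (6 to 14) and none fell by edgeR, at an unadjusted p under 0.05 or by DESeq2. Increases were modest, with ERAP2 at 0.70 ± 0.13, HLA-F at 0.66 ± 0.17 and the immunoproteasome subunit PSMB8 at 0.54 ± 0.08. Of 18 genes in the class II list 9 were below the count filter. Of the 9 tested members 5 rose and 1 fell (0 to 2). The tested member CD74, at a mean of 0.5 CPM, did not pass (-0.80, edgeR adjusted p = 0.0629). HLA-DMA (chromosome 6, 32916390 to 32936871), which with its partner loads peptides onto class II molecules, had 6, 5.87 and 6.31 CPM in DMSO and 35.4, 37.1 and 36.7 CPM in MS023. HLA-DMB (chromosome 6, 32902406 to 32908847), that partner, had 7.35, 9.69 and 8.34 CPM in DMSO and 54.3, 50.8 and 51.7 CPM in MS023. Both rose about equally, HLA-DMA by 2.58 ± 0.06 and HLA-DMB by 2.62 ± 0.08. HLA-DMB was at 1.40, 1.76 and 1.68 CPM in GSK591. The thiol reductase IFI30, which unfolds antigens, rose (0.84 ± 0.07). Counts of HLA genes can be shared between similar genes.

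Chemokines and cytokines fell more often than they rose, with 6 of 28 higher (2 to 7), 13 lower (9 to 14) and a median of -0.54. CXCL5, a neutrophil chemokine, had 127, 130 and 121 CPM in DMSO and 24.7, 21.9 and 23.3 CPM in MS023. CXCL5 fell 5.41-fold (-2.44 ± 0.05) and was at 112, 118 and 123 CPM in GSK591. Of 24 NF-kB subunits and feedback genes 8 rose (6 to 10) and 8 fell (4 to 9). The plasminogen activator PLAU had 42.9, 45.1 and 42.4 CPM in DMSO and 10.8, 10.5 and 10.6 CPM in MS023 (-2.03 ± 0.05), and the ubiquitin ligase BIRC3 rose (0.55 ± 0.06).

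Most genes of sterol and fatty acid synthesis rose, with 27 of 38 tested members higher (24 to 28) and 4 lower (2 to 4), and a median of 0.28. Cholesterol genes are controlled mainly by SREBP2, the product of SREBF2, which is released when membranes run short of sterol. ABCG1, a transporter that moves sterol out of cells, had 4.75, 4.86 and 4.41 CPM in DMSO and 8.43, 7.94 and 8.16 CPM in MS023. ABCA1, another sterol exporter, had 31.9, 30.2 and 34.3 CPM in DMSO and 15.1, 15.2 and 15.2 CPM in MS023. The groups did not overlap for either: ABCG1 rose 1.75-fold (0.81 ± 0.11), while ABCA1 fell (-1.08 ± 0.07). ACLY (-0.39 ± 0.03), which makes cytosolic acetyl-CoA, and PMVK (-0.37 ± 0.07), an early mevalonate enzyme, also fell. Summed over the list, levels were 5250 to 5300 CPM in DMSO and 6240 to 6330 CPM in MS023.

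Promoters of sterol and class II genes are shown because 27 of 38 and 5 of 9 members were higher. They cover the 250 bases before the start in RefSeq (GRCh38.p14), while levels come from hg19 counts. The sequences and the motifs were chosen after values were seen, and these promoters because they hold a match. A set of 5 motifs was searched on both strands: the sterol regulatory element as TCACNCCAC, the CCAAT box by that name's letters, the TATA box as TATAAA, the forkhead motif as TGTTTNC and the antioxidant response element as TGACNNNGC. Over 27305 promoters of this length they occurred, in that order, in 0.875%, 33%, 11.1%, 15.6% and 11%. No matches of different motifs overlap in the promoters printed. Among higher sterol members, 19 of 27 had a promoter in the table, of which 15 held CCAAT, 1 the sterol element (SREBF2), 2 TATAAA, 2 the forkhead motif and 0 the antioxidant element. Among the 11 other tested members, 5 held CCAAT. All 4 higher class II members with a promoter held CCAAT, and so did 1 of 3 other tested class II members with a promoter. A match is a description of letters and does not show binding. In the lines below capitals mark each match on either strand, in SREBF2 (chr22:41832855-41833104, plus strand), HMGCS1 (chr5:43313413-43313662, minus strand), HLA-DMA (chr6:32953098-32953347, minus strand) and HLA-DMB (chr6:32941029-32941278, minus strand).
SREBF2: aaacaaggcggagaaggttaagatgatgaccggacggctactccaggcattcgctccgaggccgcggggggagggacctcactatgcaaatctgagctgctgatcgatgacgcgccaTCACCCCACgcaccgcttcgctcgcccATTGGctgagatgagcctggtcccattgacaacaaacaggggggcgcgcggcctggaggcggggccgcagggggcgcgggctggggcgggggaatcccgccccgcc
HMGCS1: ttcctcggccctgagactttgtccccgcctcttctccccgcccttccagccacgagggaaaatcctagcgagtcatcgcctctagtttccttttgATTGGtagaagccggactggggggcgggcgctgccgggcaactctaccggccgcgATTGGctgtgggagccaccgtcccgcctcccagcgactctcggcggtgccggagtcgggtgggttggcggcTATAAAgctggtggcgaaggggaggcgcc
HLA-DMA: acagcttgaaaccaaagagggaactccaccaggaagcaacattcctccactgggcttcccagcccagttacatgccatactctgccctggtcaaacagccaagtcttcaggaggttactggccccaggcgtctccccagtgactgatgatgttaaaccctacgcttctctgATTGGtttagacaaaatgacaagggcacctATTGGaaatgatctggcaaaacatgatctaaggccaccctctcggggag
HLA-DMB: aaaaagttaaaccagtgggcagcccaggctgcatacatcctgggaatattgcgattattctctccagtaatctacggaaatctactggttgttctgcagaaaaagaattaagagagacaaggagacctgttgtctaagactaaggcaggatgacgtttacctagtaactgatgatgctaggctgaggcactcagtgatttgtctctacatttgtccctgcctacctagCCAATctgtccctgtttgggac
In SREBF2 the sterol element begins 133 bases before the start and the CCAAT match 106 bases before it. HMGCS1, the synthase early in the mevalonate pathway, has 2 CCAAT matches and a TATAAA match that begins 29 bases before the start. HLA-DMA has 2 CCAAT matches on the opposite strand, and HLA-DMB 1 on its own strand.

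Targets of NRF2, the oxidant-responsive factor that is constitutively active in A549 through a lost KEAP1 function, were mostly higher, with 19 of 30 up (13 to 20) and 3 down (2 to 3). GPX2, a glutathione peroxidase, had 344, 308 and 298 CPM in DMSO and 673, 685 and 669 CPM in MS023. It rose 2.13-fold (1.09 ± 0.06), and the carbonyl reductase CBR3 (0.74 ± 0.07) and the autophagy receptor SQSTM1 (0.62 ± 0.03) rose too. The exporter ABCC1 (-0.30 ± 0.04) and the cystine transporter SLC7A11 (-0.20 ± 0.03) fell. Of the 19 higher members 15 had a promoter, and 6 of these held the antioxidant element (CBR1, GCLM, GPX2, ME1, PGD and TXNRD1), against 0 of 6 other tested members with a promoter. The GPX2 promoter (chr14:64942746-64942995, minus strand) is printed with its matches in capitals, the antioxidant element beginning 122 bases before the start.
GPX2: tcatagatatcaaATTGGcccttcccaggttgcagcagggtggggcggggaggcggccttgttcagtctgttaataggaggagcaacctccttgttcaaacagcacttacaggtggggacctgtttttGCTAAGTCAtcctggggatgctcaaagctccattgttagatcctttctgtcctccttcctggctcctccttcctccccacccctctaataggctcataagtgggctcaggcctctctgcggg
Among 26 aldo-keto reductases and aldehyde dehydrogenases 12 rose (9 to 15) and 9 fell. ALDH3A1 fell (-0.57 ± 0.03), from 1390, 1300 and 1330 CPM to 911, 897 and 888 CPM, and ALDH3A2 (0.51 ± 0.03) and AKR1C1 (0.46 ± 0.03) rose, the last with near-identical paralogs. Of 36 cytochrome P450 and conjugation genes 16 rose (9 to 16) and 11 fell (8 to 12).

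Hypoxia and glycolysis genes were more often lower, with 6 of 41 higher (5 to 10, and 10 without DMSO 1) and 24 lower (19 to 24). LDHA, lactate dehydrogenase, had 1980, 1940 and 1820 CPM in DMSO and 1210, 1180 and 1150 CPM in MS023. CA9, a carbonic anhydrase of hypoxic tumour cells, had 9.44, 5.38 and 4.62 CPM in DMSO and 1.97, 1.95 and 2.14 CPM in MS023. LDHA fell 1.62-fold (-0.70 ± 0.03) and CA9 by more (-1.65 ± 0.22), with DMSO 1 the highest library for both. PFKFB3 (0.63 ± 0.04), ADM (0.59 ± 0.03) and the oxygen sensor EGLN1 (0.58 ± 0.04) rose.

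Epithelial structure and matrix genes moved in both directions. KRT4 (chromosome 12, 53200333 to 53208335), a keratin of stratified epithelium, had 41.2, 39.2 and 39.8 CPM in DMSO and 195, 204 and 200 CPM in MS023. KRT18, a keratin of simple epithelium, had 1700, 1890 and 1820 CPM in DMSO and 1440, 1220 and 1210 CPM in MS023. KRT4 rose 4.97-fold (2.31 ± 0.05), KRT20 rose (2.20 ± 0.10) and KRT18 fell (-0.48 ± 0.05). Of 39 junction genes 17 rose and 10 fell, with the scaffold TJP3 (1.19 ± 0.06) higher and CLDN2 (-0.88 ± 0.05) lower. Of 36 mesenchymal genes 7 rose (3 to 8) and 23 fell, and the median was -0.57. TGFBI, a matrix protein induced by TGF-beta, had 772, 774 and 745 CPM in DMSO and 250, 253 and 254 CPM in MS023. It fell 3.03-fold (-1.60 ± 0.03). The repressor SNAI1 had 14.2, 15.5 and 16.6 CPM in DMSO and 5.70, 5.41 and 4.21 CPM in MS023 (-1.59 ± 0.10). CTGF (1.26 ± 0.07), a target of YAP, rose. Of 39 collagens and modifying enzymes 8 rose and 22 fell (13 to 23), among the latter the collagen cross-linker LOXL2 (-1.60 ± 0.04) and the prolyl hydroxylase P4HA3 (-2.02 ± 0.05). COL1A1 rose (1.10 ± 0.08).

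Growth factor pathways also changed at their receptors and ligands. EGFR (chromosome 7, 55086714 to 55324313), the receptor of epidermal growth factor, had 169, 162 and 162 CPM in DMSO, 70.0, 61.0 and 63.1 CPM in MS023 and 397, 434 and 399 CPM in GSK591. Its partner ERBB2 had 144, 135 and 137 CPM in DMSO and 201, 210 and 213 CPM in MS023. EGFR fell 2.53-fold (-1.34 ± 0.05) and ERBB2 rose 1.5-fold (0.58 ± 0.04). Of 32 genes of the family 13 rose (8 to 14) and 11 fell (7 to 12). Among 43 TGF-beta and BMP genes 15 rose (10 to 16) and 17 fell (11 to 18). BAMBI, a decoy receptor, had 107, 99.1 and 103 CPM in DMSO and 422, 443 and 454 CPM in MS023 (2.09 ± 0.05), and the ligand BMP7 rose (2.53 ± 0.13). The ligand TGFB2 (-1.38 ± 0.05) and the BMP target ID2 (-1.17 ± 0.06) fell. Of 39 Wnt and Notch genes 16 rose (11 to 19) and 5 fell (2 to 7), with the Notch ligand JAG1 (-1.08 ± 0.03) and the Wnt deacylase NOTUM (2.39 ± 0.27) as examples.

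**Figure D4:**
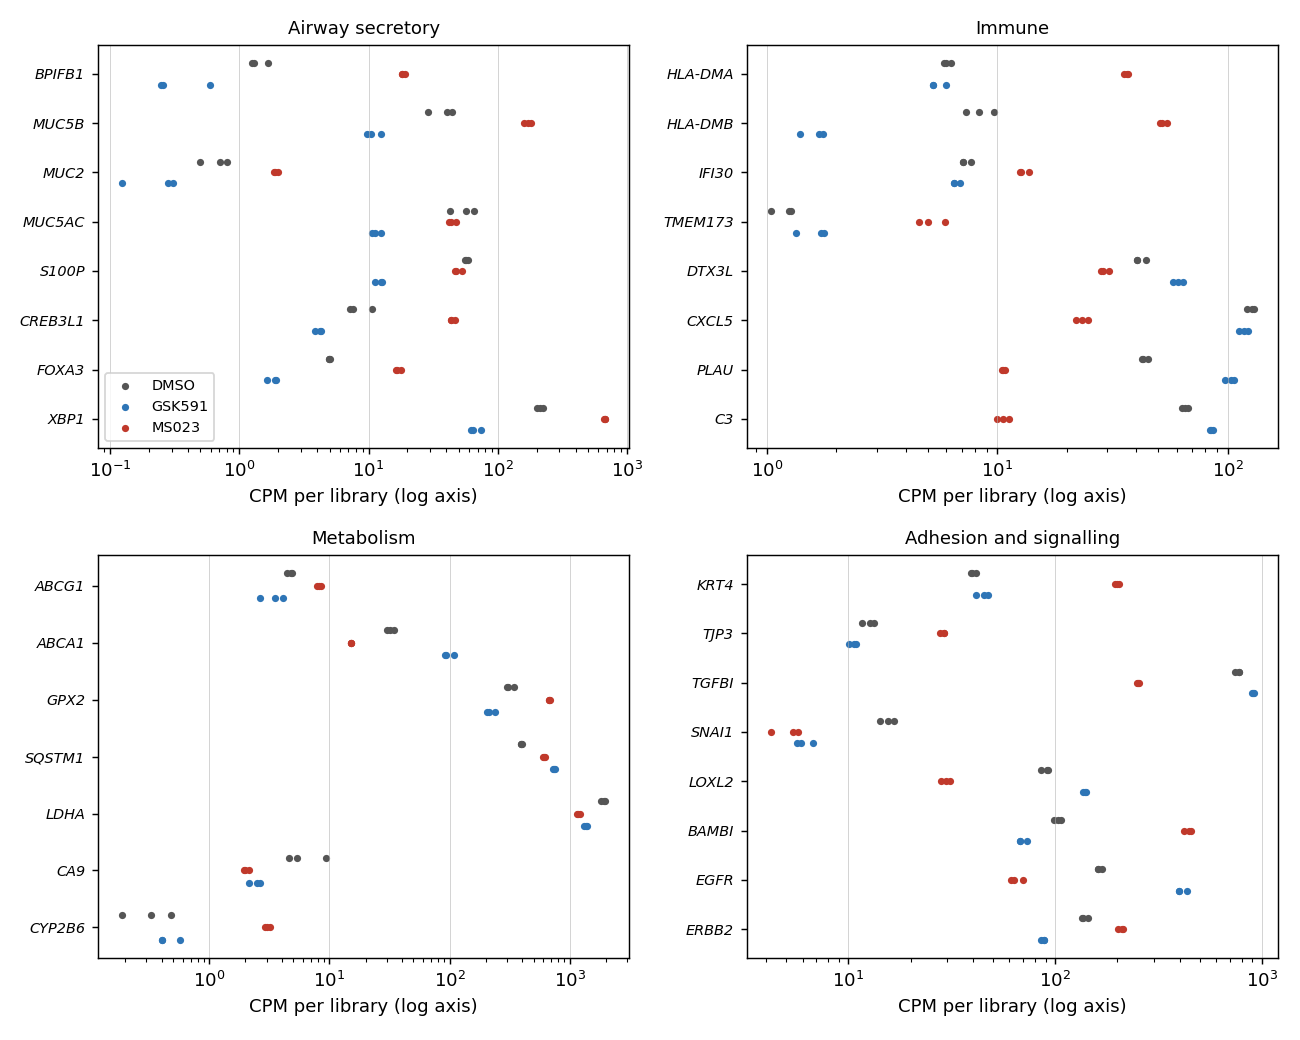
CPM on a log axis in each DMSO, MS023 and GSK591 library for members of several lists, 1 point per library. EGFR stands at 61.0 to 70.0 CPM in MS023 and 397 to 434 CPM in GSK591, and XBP1 at 663 to 680 and 61.7 to 74.5 CPM.

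Genes of the late cell cycle were mostly lower. Of 55 genes of G2/M and mitosis 2 rose (2 to 5) and 40 fell (27 to 41), with a median of -0.24. HMMR, a spindle protein, had 118, 137 and 125 CPM in DMSO and 73.8, 69.3 and 68.0 CPM in MS023 (-0.85 ± 0.05). KIF18A, a motor that sets chromosome alignment, fell (-0.56 ± 0.04), and MYBL2 (0.37 ± 0.05) and the kinase WEE1 (0.28 ± 0.04) rose. All 55 genes had higher levels in MS023 than in GSK591 at the adjusted threshold, as did 6151 of all 18292 tested genes. Against DMSO the median of these 55 genes was -0.92 with GSK591, beside -0.24 with MS023. Of 56 G1/S genes 17 rose (11 to 20) and 15 fell (8 to 16), with CCND3 highest (0.66 ± 0.04) and CDK6 lowest (-0.47 ± 0.04). Of 43 recombination genes 6 rose (3 to 8) and 18 fell (6 to 18), among them RAD50 (-0.57 ± 0.04) and BRCA2 (-0.56 ± 0.06). Of 52 replication-dependent histones 2 rose (0 to 5) and 27 fell (5 to 33), with single values uncertain because copies are near-identical. Of 42 p53 targets 9 rose (6 to 10) and 15 fell (10 to 16). GDF15 rose (1.13 ± 0.06), and TP53I3 fell (-0.80 ± 0.05).

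RNA-binding and splicing genes, whose proteins include known type I substrates, moved in both directions. Of 58 hnRNP, FET and RGG-motif genes 13 rose (22.4%, 8 to 14 genes) and 17 fell (29.3%, 9 to 18 genes), with a median of -0.02. These shares were near those over all tested genes, 25.1% higher and 25.9% lower. RBMX, an RNA-binding protein of the hnRNP family, had 389, 387 and 383 CPM in DMSO and 309, 307 and 309 CPM in MS023 (-0.33 ± 0.03). RBM3 (0.45 ± 0.04) and CHTOP (0.41 ± 0.04) rose. Of 42 SR proteins and their kinases 13 rose (5 to 15) and 2 fell (0 to 4), and of 47 snRNP genes 1 rose (1 to 5, and 3 without DMSO 1) and 17 fell (5 to 19). Of 81 ribosomal protein genes 2 rose (0 to 6) and 37 fell (45.7%, 6 to 53 genes, and 53 without DMSO 1). Among all genes of at least 100 CPM 40.3% were lower. The summed level of the ribosomal protein genes overlapped between groups, at 43700 to 49100 CPM in DMSO and 41200 to 44900 CPM in MS023. Among histone and DNA modifiers 25 of 56 rose (12 to 28) and 9 fell (5 to 10), with HDAC4 lower (-1.28 ± 0.07) and HDAC9 (1.89 ± 0.17) and HDAC1 (0.61 ± 0.04) higher. In the neuronal list 9 of 25 rose (5 to 9) and 5 fell. SNAP25, a vesicle fusion protein, had 111, 108 and 112 CPM in DMSO and 30.0, 25.4 and 25.2 CPM in MS023 (-2.04 ± 0.06), and MAP2 rose (1.74 ± 0.06).

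Among 14202 protein-coding genes 4077 were higher and 4067 lower, and scaled by total counts 4625 were higher and 3431 lower. Long non-coding genes numbered 563, of which 59 were higher and 155 lower, with a median of -0.23, and with 45 higher and 125 lower in DESeq2. Antisense genes were 99 higher and 169 lower of 1033, a count that is uncertain because the strand setting of the counting was not stated. Genes of at least 300 kb, 578 in number, were higher in 23.5% and lower in 40.8%, against 19.4% and 19.5% of 5084 genes under 10 kb. Among protein-coding genes alone, those of at least 300 kb were higher in 24% and lower in 41.8%, and those under 10 kb in 26.4% and 23.3%.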

How the data were processed

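RNA sequencing libraries of A549 cells were compared, 3 each for MS023 and DMSO, with 3 of GSK591 in the same fit. The authors deposited a table of read counts per gene, not normalised, and a table of FPKM per library in the layout of Cufflinks. The submitters' processing notes name cutadapt, STAR, featureCounts, DESeq2 and hg19. Versions, annotation, strand setting and filters: not given in the sources used here. Symbols of 48523 identifiers and all positions came from the FPKM tables. Gene types for 45025 came from GENCODE by identifier.

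Counts were fitted in R 4.3.3 with edgeR 4.0.16 (filterByExpr, minimum count 10 and total 15, TMM scaling, quasi-likelihood, group only), with Benjamini-Hochberg adjustment over 18292 genes, a threshold of 0.05 and two-sided p-values. The standard error is the size of the log2 change divided by the square root of F. The 6 libraries compared held 33001030 to 51244525 counts; reads are not independent molecules, so precision covers the spread between libraries only. The fit was tested on simulated data.

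The 51 gene lists, the genes and the comparisons were chosen with earlier results of these data known. A rule took the 15 largest changes each way (at least 1 CPM, no overlap), up to 3 members each way per list, all PRMT genes and the 6 largest differences each way from GSK591, in all 308 genes. The text names some of these, and several are not reported here. Genes named only in motif counts were picked after their values were seen. The 18 alternatives were other scalings, filters, thresholds, DESeq2 1.42.0, limma 3.58.1 on log2(FPKM + 1) or log2(FPKM + 0.1), a replicate block, only the 6 libraries, and each library left out.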

Additional observations from a re-analysis of the deposited data

How the results depend on the processing

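The counts of 4594 higher and 4733 lower genes became, with limma on the authors' FPKM, 2831 and 2943 with a pseudocount of 1, 2811 and 2952 with 0.1, and 2848 and 2622 without a filter. Of all genes so called 5163, 5154 and 4710 kept their direction and call from the counts. With glmTreat, which tests for changes beyond log2 0.5, 917 and 880 were called. Against GSK591 glmTreat called 1740 and 2437, and FPKM called 3065 lower with a pseudocount of 1 and 3047 with 0.1. Scaling by total counts gave 5190 higher and 4035 lower, with a median over all genes of 0.036 in place of -0.003. Leaving out each library gave 3921 to 4768 higher and 4061 to 4564 lower against DMSO, and 5717 to 5966 and 5468 to 5619 against GSK591. The number of list members called, 932, became 556 in FPKM without a filter, 184 by glmTreat, and 815 to 957 with a library left out. The number called among the 308 named genes, 302, became 144 by glmTreat and 280 to 295 with a library left out. These are totals of each fit and not shares of the first count. In FPKM with a pseudocount of 1 or 0.1 the sign turned for SNRPD3 (0.025, 0.026), SNHG7 (-0.362), RPL36A (-0.299), CCDC40 (0.475, 0.602), MTAP (0.287, 0.456) and HSPA4 (-0.078, -0.079), and without a filter also for SRPK3 (-0.020) and CYP39A1 (0.076). FPKM without a filter also ended the calls of CEBPB, CLNS1A, ERAP2, MALAT1, MX1 and PMVK, and FPKM with a filter that of XDH. The cause was not tested.

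With a replicate block 4382 genes were higher and 4473 lower against DMSO, and 6026 and 5616 against GSK591. Same-numbered DMSO and MS023 libraries did not deviate together (r = -0.43, -0.203 and -0.15 across genes). With 3 libraries a group, and DMSO 1 apart on the second component, these values cannot show whether the numbers mark pairs. Of the 302 called named genes 222 kept the call in the 16 alternatives that kept the threshold, and 289 without DMSO 1. Genes under 1 CPM rest on few counts, which limits their precision.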

Other observations

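Lysosome and autophagy genes had 16 of 36 members higher (11 to 17 over the alternatives) and 6 lower, led by the protease CTSS (0.56 ± 0.04) and the ceramidase ASAH1 (0.56 ± 0.04), with CTSL lower (-0.47 ± 0.04). Of 9 alveolar and lung lineage genes 2 rose (0 to 3) and 4 fell, with a median of -0.07. LAMP3 rose, with log2 changes of 0.107 to 2.089 over the 15 alternatives that tested it. NAPSA rose too (0.214 to 1.118 over 18 alternatives), with a changed call in 4. The surfactant lipid transporter ABCA3 had 50.3, 47.8 and 48.6 CPM in DMSO and 27.2, 23.8 and 26.0 CPM in MS023 (-0.93 ± 0.05), and CAV1, the caveolar scaffold of type I alveolar cells, fell (-1.12 ± 0.05). Of 15 ciliated and basal cell markers 7 rose (4 to 7) and 2 fell (0 to 2), with the basal factor TP63 higher (0.85 ± 0.06) and TPPP3 higher (1.33 ± 0.08). S100A2 was lower (log2 -0.963 to -0.189 over 17 alternatives), with a changed call in 13. CCDC40 was lower in the counts, but its sign turned in FPKM (-0.412 to 0.602 over 18 alternatives). MALAT1, an abundant nuclear RNA, had 3640, 4010 and 5330 CPM in DMSO and 6290, 6020 and 6120 CPM in MS023 (0.51 ± 0.10). Of 13 mitochondrially encoded mRNAs 5 fell (38.5%, 1 to 6 genes), beside 40.3% lower among all genes of at least 100 CPM.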
